A study of Homo sapiens with 8 samples.

Results

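The AP-1 transcription factors described here are 10 genes, FOS, FOSB, FOSL1, FOSL2, JUN, JUNB, JUND, ATF3, BATF3 and MAFF, out of 18417 genes tested. They were chosen by symbol: a row of the deposited table counted as a member when its single gene symbol in the platform annotation was one of these names. All 10 were found, each with 1 probe set, the group of array probes that together read a transcript. They were measured in BT549, an established human line of triple-negative breast cancer, in total RNA from 8 cultures on gene expression arrays. In the attached group (n = 4) the cells grew on ordinary culture plastic, and in the suspended group (n = 4) on plates coated with poly-HEMA, which keeps cells from sticking. Every culture received RPMI medium with 10% serum and insulin, and no gene was altered and no drug given in either group. Suspended cultures lasted 24 h. For attached cultures one label field gives 24 h and another 48 h. If 48 h is right, culture time and attachment cannot be told apart. The 4 cultures of a group are biological replicates of a single line, and the p-values cover the spread between these cultures alone.

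AP-1 is a family of dimeric transcription factors that join through a leucine zipper and bind DNA through the basic region next to it. Jun proteins (JUN, JUNB, JUND) can pair with each other or with a Fos protein (FOS, FOSB, FOSL1, FOSL2), whereas Fos proteins need a partner, and the ATF and small Maf relatives ATF3, BATF3 and MAFF add further pairings. Many of these genes answer growth factors, stress and adhesion through MAP kinases within minutes, and FOSL1 in particular is known for its abundance in mesenchymal, triple-negative breast cancer cells. The comparison of suspended with attached cells asks which members differ in transcript level when these cells are kept from attaching.

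The stretches below, from RefSeq on GRCh38.p14, lie before the start sites of 7 members and are shown because the cyclic AMP response element, a variant of it or its shorter core recurs in them, in members that changed in opposite directions as well as in members that passed no test. Of the 10 members 8 had an entry, with 10 promoters in all since ATF3 and MAFF had 2 each; FOSL1 and BATF3 had none. Capitals mark TGACGTCA, the cyclic AMP response element, its variant TGACATCA, or the shorter TGACG, which TGACGTCA contains; each was searched on both strands. Positions count back from −1, the base before the start.
JUN, −87 to −28, chr1:58784075-58784134, minus strand: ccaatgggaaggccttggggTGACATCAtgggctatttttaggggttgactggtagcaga
ATF3, −143 to −84, chr1:212565264-212565323, plus strand: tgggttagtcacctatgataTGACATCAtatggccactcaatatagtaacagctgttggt
JUND, −220 to −161, chr19:18281783-18281842, minus strand: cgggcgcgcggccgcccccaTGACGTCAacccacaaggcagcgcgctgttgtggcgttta
MAFF, −74 to −15, chr22:38201920-38201979, plus strand: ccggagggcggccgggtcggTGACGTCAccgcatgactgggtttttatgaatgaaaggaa
JUNB, −157 to −98, chr19:12791329-12791388, plus strand: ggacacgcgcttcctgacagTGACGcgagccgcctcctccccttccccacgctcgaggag
FOS, −84 to −25, chr14:75278744-75278803, plus strand: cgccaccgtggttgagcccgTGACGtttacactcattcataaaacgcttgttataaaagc
FOSB, −80 to −21, chr19:45467916-45467975, plus strand: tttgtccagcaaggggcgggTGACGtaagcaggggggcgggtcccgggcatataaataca
In windows of 300 bases (250 before the start and 50 after), TGACATCA was found in 2 of the 10 member promoters and in 2.61% of all 35116 promoters, and TGACGTCA in 2 of 10 and in 1.85%. TGACG was found in 7 of 10, 1 each of FOS, FOSB, FOSL2, JUN, JUNB, JUND and MAFF, and in 24.6%. FOSL2, whose stretch is not printed, had TGACG at −201 and −66. The classical AP-1 site TGACTCA was found in 1 of 10, that of FOSL2, 5 bases into its transcript, and in 4.95% of all promoters. These matches describe letters and not binding.

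Across the 8 arrays the deposited log2 signals had medians of 6.02 to 6.07, and arrays correlated at r = 0.993 or more within the groups and at 0.987 to 0.994 between them. All 5 markers of a mesenchymal line lay above the 25th percentile of gene means, 5.28, with VIM at 11.59 to 11.74 and FN1 at 10.73 to 10.92. Of these SPARC (0.37) and ZEB1 (0.27) rose in suspension and CDH2 fell (−0.38), and their summed signal went from 12.99 to 13.05 attached to 13.09 to 13.16 suspended (log2). Of 8 luminal and epithelial markers 3, ESR1, PGR and CDH1, had means below that percentile, whereas GATA3 (8.10 to 8.69), ERBB2 (7.44 to 7.60), KRT19 (6.27 to 6.91), FOXA1 (5.58 to 5.94) and EPCAM (5.02 to 6.04) had means above it. Of the 8, GATA3 (0.49) and FOXA1 (0.18) rose, and the summed signal of that list went from 9.48 to 9.54 attached to 9.73 to 9.79 suspended (log2). Of 5 leukocyte markers CD14 rose (0.22). CD14 (5.46 to 5.93) and CD79A (5.34 to 5.62) had means above the 25th percentile, and PTPRC (3.84 to 4.05), CD3E and LYZ below it. Of 4 endothelial markers 0 passed the test. The part of these shifts in the results below was not tested. In RNA from whole cultures, a change in every cell and a change in the share of cells in some state cannot be told apart.

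Suspended BT549 cells carried more JUNB and JUND transcript and less JUN, FOSL1 and FOSB than attached cells. ATF3 was higher too, but it passed the test below in only 2 of 8 fits that left out 1 array. Thus 6 of the 10 members passed the test, 3 higher and 3 lower, whereas FOS, FOSL2, BATF3 and MAFF did not. A gene passed when its limma p-value, adjusted by the Benjamini-Hochberg method over all 18417 genes, was under 0.05. Of all genes tested 20.6% passed, 10.4% higher and 10.2% lower. The 2 groups also had separate ranges in these 6 members, as they did in 24.8% of all genes (12.7% higher, 12.2% lower). The changes were modest, from 1.19-fold for ATF3 to 1.35-fold for FOSL1. The median log2 difference of the 10 members was −0.02, beside 0.02 for all genes, and their median absolute difference was 0.27 against 0.09. These comparisons with all genes are not matched for signal level. A fit on only the genes above the median signal called 3870, more than the 3787 called among all genes. It tested fewer genes, so its share called was above 20.6%. Of the members all but ATF3, BATF3 and MAFF lay above that median. The shares given for the lists below are likewise unmatched, so one above 20.6% need not be an excess over genes of like signal.

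**Figure D1:**
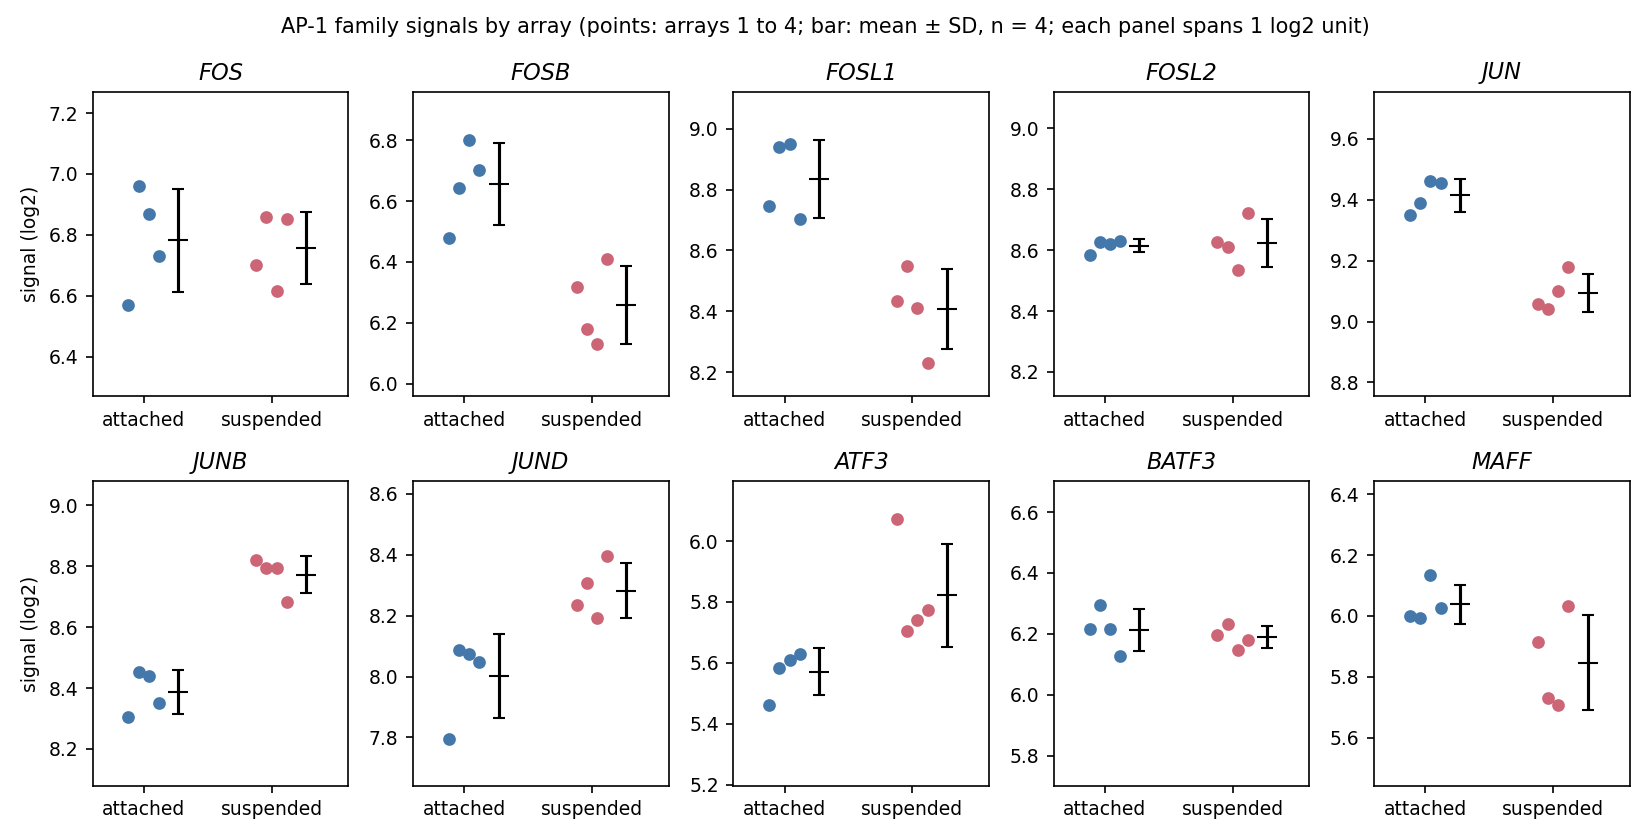
Log2 signal of each of the 10 AP-1 genes on the 4 attached (blue) and 4 suspended (red) arrays, with the mean and SD beside the points; every panel spans the same height on its own axis. The groups separate upward for JUNB, JUND and ATF3 and downward for JUN, FOSL1 and FOSB, and they overlap for FOS, FOSL2, BATF3 and MAFF.

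The Jun genes moved in opposite directions. JUN encodes the founding, strongly activating Jun protein and is known to drive its own promoter through the TGACATCA site printed above. Its log2 signals were 9.35, 9.39, 9.46 and 9.45 in attached replicates 1 to 4 and 9.06, 9.04, 9.10 and 9.18 in suspended replicates 1 to 4. Every suspended array lay below every attached array. JUN fell by 0.32 on the log2 scale (SE 0.050, 95% interval −0.43 to −0.21, n = 4 per group, limma adjusted p = 0.000815), which is 1.25-fold.

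JUNB, a Jun protein that binds the same sites but is a weaker activator and can counter JUN, went the other way. Its attached signals were 8.30, 8.45, 8.44 and 8.35 and its suspended signals 8.82, 8.79, 8.79 and 8.68. All 4 suspended arrays lay above all 4 attached ones. JUNB rose 1.31-fold (log2 0.39, SE 0.053, 95% interval 0.27 to 0.50, limma adjusted p = 0.000346), the smallest adjusted p among the members. A difference of that size or more, in either direction, was met by 5.40% of all genes tested, and one of the size of JUN by 8.03%.

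JUND, the Jun gene that is less dependent on growth factors and is linked to slow growth, read 7.79, 8.09, 8.07 and 8.05 attached and 8.23, 8.31, 8.19 and 8.40 suspended. The groups did not overlap, and attached replicate 1 lay below the other 3 attached arrays. JUND rose 1.22-fold (log2 0.28, SE 0.073, 95% interval 0.12 to 0.44, limma adjusted p = 0.0174). Without attached replicate 1 the difference was 0.21 (adjusted p = 0.0333).

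Of the Fos genes FOSL1 and FOSB fell, and the other two did not pass the test. FOSL1 encodes FRA1, which lacks the strong activation domain of FOS and is tied to invasion in mesenchymal tumour cells. Its signals were 8.75, 8.94, 8.95 and 8.70 attached and 8.43, 8.55, 8.41 and 8.23 suspended. The highest suspended array lay below the lowest attached one, and suspended replicate 4 was the lowest of all. FOSL1 fell by 0.43 on the log2 scale (SE 0.078, 95% interval −0.60 to −0.26, limma adjusted p = 0.00232), 1.35-fold and the largest difference among the 10. A difference of at least that size was met by 4.10% of all genes tested.

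FOSB, a Fos gene known for brief induction after a stimulus and for a stable truncated product, read 6.48, 6.64, 6.80 and 6.70 attached and 6.32, 6.18, 6.13 and 6.41 suspended. The groups were separate by a small gap, between suspended replicate 4 and attached replicate 1. FOSB fell by 0.40 (SE 0.079, 95% interval −0.57 to −0.22, limma adjusted p = 0.00392), which is 1.32-fold. With 1 value per probe set, its full-length and truncated products are not separated here.

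FOS, the prototype immediate-early gene, spread more widely within groups than it differed between them. It read 6.57, 6.96, 6.87 and 6.73 attached and 6.70, 6.86, 6.62 and 6.85 suspended, and both the highest and the lowest array were attached. The log2 difference was −0.02 (SE 0.086, 95% interval −0.21 to 0.16, limma adjusted p = 0.873), an interval of 0.862- to 1.12-fold. FOSL2, which encodes FRA2, read 8.58, 8.63, 8.62 and 8.63 attached and 8.63, 8.61, 8.53 and 8.72 suspended. Its suspended arrays lay on both sides of the attached ones, and its difference was 0.01 (SE 0.050, 95% interval −0.10 to 0.12, adjusted p = 0.929).

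Among the ATF and small Maf relatives, ATF3 was the one past the test. ATF3 is a stress-induced factor that represses as a homodimer and can activate with Jun partners. It read 5.46, 5.58, 5.61 and 5.63 attached and 6.07, 5.70, 5.74 and 5.77 suspended. Suspended replicate 1 stood above the rest, and the other 3 suspended arrays lay little above the attached ones. ATF3 rose 1.19-fold (log2 0.25, SE 0.079, 95% interval 0.08 to 0.42, limma adjusted p = 0.0432). This call was the least firm: with each array left out in turn it held only without suspended replicate 2 or 3, and the difference was 0.17 (adjusted p = 0.0666) without suspended replicate 1. It was also lost with the arrays quantile-normalized (adjusted p = 0.0610) or centred (0.0573 and 0.0811).

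MAFF, a small Maf protein that has no activation domain of its own, read 6.0, 5.99, 6.13 and 6.03 attached and 5.91, 5.73, 5.71 and 6.03 suspended. Of the suspended arrays 3 lay below all attached ones and replicate 4 among them. The difference was −0.19 (SE 0.073, 95% interval −0.35 to −0.03, limma adjusted p = 0.0939), which did not pass. It passed without suspended replicate 4 (−0.25, adjusted p = 0.0202), with arrays weighted by quality (−0.23, adjusted p = 0.0359) and with arrays centred on the median of the tested genes (−0.24, adjusted p = 0.0264). BATF3, a Jun partner best known from dendritic cells, read 6.22, 6.30, 6.22 and 6.13 attached and 6.20, 6.23, 6.15 and 6.18 suspended. All its suspended arrays lay within the attached range, and the difference was −0.02 (SE 0.049, 95% interval −0.13 to 0.08, adjusted p = 0.769).

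**Figure D2:**
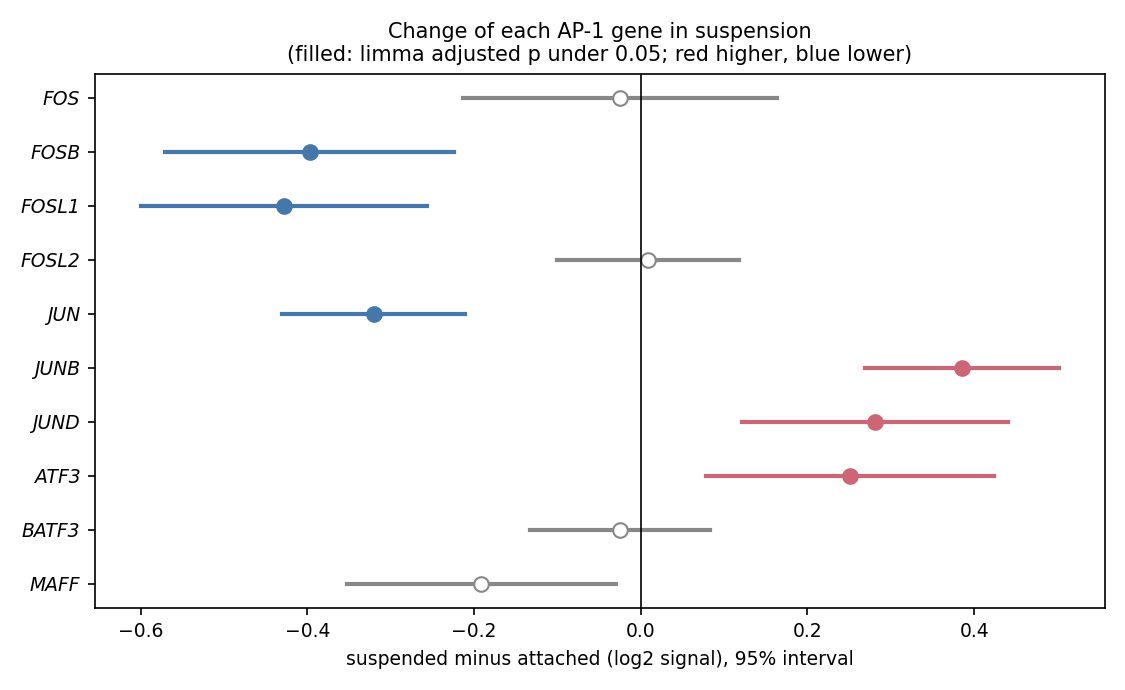
Log2 difference, suspended minus attached, of each AP-1 gene with its 95% interval from limma (n = 4 arrays per group); filled points passed adjusted p under 0.05. JUNB (0.39), JUND (0.28) and ATF3 (0.25) lie right of 0, FOSL1 (−0.43), FOSB (−0.40) and JUN (−0.32) lie left of it, and the intervals of FOS, FOSL2 and BATF3 cover it.

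Whether members changed unequally was asked within each array, where any scaling of the whole array cancels, for 7 pairs. The log2 signal of one gene was taken minus that of the other. The change of this difference from attached to suspended was tested with an exact two-sided permutation test. The 95% intervals of these changes are t intervals from a linear model and not from that test, so interval and exact p can differ. JUN minus JUNB was 1.05, 0.94, 1.02 and 1.11 on attached arrays and 0.24, 0.25, 0.31 and 0.50 on suspended arrays. JUN thus lost 0.71 log2 units, or 1.63-fold, against JUNB (change −0.71, 95% interval −0.88 to −0.54, n = 4 per group, exact p = 0.0286). Against JUND the change was −0.60 (95% interval −0.76 to −0.44, exact p = 0.0286), and again no suspended array reached the attached range. Every suspended array was lower in JUN and higher in JUNB and JUND than every attached array. Both differences therefore had to separate, and their exact p adds no evidence to the tests of the single genes.

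JUNB and JUND changed by more nearly equal amounts, with a change of 0.10 in their difference (95% interval −0.10 to 0.31, exact p = 0.314) and overlapping groups. Within the Fos genes, FOSB lost 0.37 against FOS (95% interval 0.15 to 0.60 for FOS minus FOSB, exact p = 0.0286). FOSL1 minus FOSL2 changed by −0.44 (95% interval −0.71 to −0.16, exact p = 0.0286). The groups did not overlap for JUN minus JUNB, JUN minus JUND, FOS minus FOSB and FOSL1 minus FOSL2. Between families, FOSL1 minus JUN, genes that both fell, changed by −0.11 (95% interval −0.39 to 0.18, exact p = 0.457). ATF3 minus BATF3, both on chromosome 1, changed by 0.28 (95% interval 0.02 to 0.53, exact p = 0.0571), with overlapping groups. An exact p of 0.0286 is the smallest that 4 against 4 arrays can give, and adjusted by the Benjamini-Hochberg method over the 7 pairs it became 0.05, at the threshold and not under it.

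**Figure D3:**
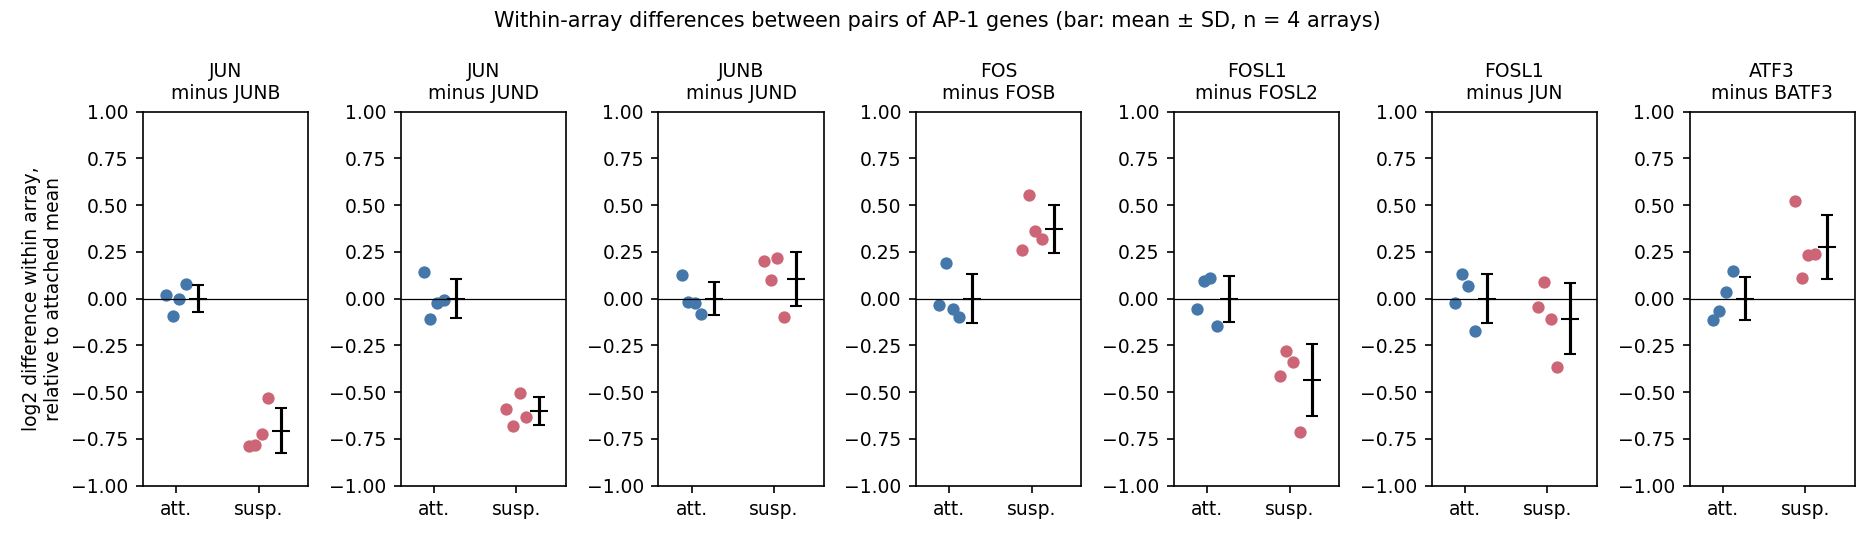
Difference in log2 signal between 2 AP-1 genes on the same array, set to 0 at the attached mean, for 7 pairs; points are arrays (att., attached; susp., suspended) and bars the mean and SD of 4. JUN minus JUNB (−0.71) and JUN minus JUND (−0.60) show the largest changes. JUNB minus JUND, FOSL1 minus JUN and ATF3 minus BATF3 overlap between the groups.

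The genes closest to each changed member over the 8 arrays were found by the root mean square distance between log2 profiles after each gene's mean was removed, and are given as a description. JUNB lay closest to TSPAN31 (distance 0.0188, where the median over all genes was 0.211) and SMAD9 (0.0377). JUND lay closest to MDFIC (0.0373) and OPTN (0.0401), and JUN to PNO1 (0.0257) and the RNA polymerase II subunit POLR2L (0.0268). FOSL1 lay closest to MICB (0.0656) and the translation repressor EIF4EBP1 (0.0696), and FOSB to FOXD1 (0.0605) and PGBD1 (0.0614). ATF3 lay closest to C19orf33 (0.0416) and MX1 (0.0444), neither of which passed the test itself (adjusted p = 0.0577 and 0.0682). The gene nearest to JUNB was closer to it than any gene was to another changed member.

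Other genes of the bZIP class, from which AP-1 proteins draw partners, moved in both directions. Of 22 measured, 8 rose, 3 fell and 11 did not pass, 50% called beside 20.6% of all genes, with a median difference of 0.10 against 0.02. CEBPB rose 1.39-fold (log2 0.48, limma adjusted p = 9.62e-05) and CEBPD rose by 0.38, both C/EBP factors of stress and inflammation, and CREB5, a relative of ATF2 that pairs with Jun, rose 1.23-fold (0.30). The falls were NFE2L3 (−0.70), ATF4 (−0.20), the effector of the amino acid response, and CEBPG (−0.18). NFE2L3 read 6.95 to 7.54 attached and 6.44 to 6.71 suspended, 1.63-fold lower and further than any AP-1 member moved.

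The MAP kinases and associated kinases that act on AP-1 proteins were called in 7 of 22 cases, 5 higher and 2 lower. That is 31.8% beside 20.6% of all genes, with a median difference of 0.04. MAP3K5, which encodes the stress kinase ASK1 upstream of JNK and p38, rose 1.86-fold from a mean of 6.12 to 7.02 (log2 0.89, SE 0.050, limma adjusted p = 3.99e-07). MAPK3, which encodes ERK1, rose 1.41-fold, and MAPKAPK2 (0.31), MAP3K1 (0.21) and RPS6KA5 (0.33) rose as well. MAP2K3, an activator of p38, fell by 0.46, and RPS6KA4 fell by 0.15. The JNK genes MAPK8, MAPK9 and MAPK10 did not pass, at 0.02, −0.13 and 0.01. RPS6KA5, at 5.03 to 5.44 attached and 5.42 to 5.61 suspended, lost its call without attached replicate 1 (0.28, adjusted p = 0.0520) or suspended replicate 1 (0.31, adjusted p = 0.0510), and RPS6KA4 in 6 of the 8 refits that left out 1 array (adjusted p up to 0.0776), all but those lacking a replicate 1. MAP3K1 lost its call with arrays centred on the tested genes (0.17, adjusted p = 0.0626). RPS6KA4 also lost it with the replicate block (limma adjusted p = 0.0856), with trended variance (0.0655) and with all probe sets tested (0.0509). RPS6KA5 also lost it with all probe sets tested (0.0504).

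Factors known to act on the FOS and JUN promoters were called in 7 of 10 cases, 4 higher and 3 lower. That is 70% beside 20.6% of all genes, with a median difference of 0.12. MEF2A, which binds the JUN promoter, rose 1.77-fold, from 7.65 to 7.79 attached to 8.43 to 8.62 suspended (limma adjusted p = 2.04e-06). MEF2D (0.37), the SRF coactivator MRTFB (0.28) and ELK1 (0.19), a target of ERK, rose too. ELK3 (−0.29), SRF itself (−0.24), which binds the serum response element of FOS, and CREB1 (−0.18) fell. CREB1 lost its call in 5 of the 8 refits with 1 array left out (adjusted p up to 0.0773). These lacked any attached array but replicate 2, or suspended replicate 1 or 4. CREB1 also lost its call with the replicate block (limma adjusted p = 0.0686) and with quantile normalization (0.0709).

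Regulators of AP-1 turnover were called in 2 of 10 cases, 20% and close to the 20.6% of all genes, so the count is no result about this list. Both calls were upward, ZFP36L2 (0.44) and ZFP36L1 (0.25), which bind AU-rich elements and promote RNA decay. The deubiquitinase USP28 (0.12, limma adjusted p = 0.0943) and FBXW7 (0.19, adjusted p = 0.124), part of a ubiquitin ligase that acts on JUN, did not pass. USP28 passed with quantile normalization (0.14, adjusted p = 0.0481) and with only genes above the median level (adjusted p = 0.0355), and FBXW7 without attached replicate 3 (0.25, adjusted p = 0.0466) or suspended replicate 2 (0.25, adjusted p = 0.0297).

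Genes known as AP-1 targets did not follow one direction. Of 29 measured, 5 rose, 7 fell and 17 did not pass (41.4% called beside 20.6% of all genes), with a median difference of −0.01. The receptor kinase AXL fell most, 2.06-fold, from 9.71 to 9.81 attached to 8.68 to 8.79 suspended (log2 −1.04, limma adjusted p = 8.46e-08). The cell cycle gene CCND1 (−0.42) and the protease gene MMP9 (−0.58) fell as well. The rises were the gap junction gene GJA1 (0.44), TGFB1 (0.39), the cyclooxygenase PTGS2 (0.31), CD44 (0.22) and LIF (0.27). PTGS2 and LIF had attached means of 4.83 and 5.13, below the 25th percentile of gene means. LIF lost its call without attached replicate 1 (limma adjusted p = 0.0521) or 3 (0.0568), and with all probe sets tested (0.0524).

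Other immediate-early genes were called in 13 of 24 cases, 9 higher and 4 lower. That is 54.2% beside 20.6% of all genes, with a median difference of 0.11. GEM, a small GTPase, rose 2.40-fold, from 8.47 to 8.54 attached to 9.71 to 9.89 suspended (limma adjusted p = 4.54e-08), and the nuclear receptor NR4A2 rose 1.99-fold and PHLDA1 1.55-fold. CCN1 fell 3.80-fold, CCN2 by 0.37, MYC by 0.40 and KLF6 by 0.18 on the log2 scale. KLF6 lost its call in 6 of the 8 refits with 1 array left out (adjusted p up to 0.0944). It kept its call without attached replicate 1 or suspended replicate 2. With the replicate block (limma adjusted p = 0.058) or all probe sets tested (0.061) the KLF6 call was lost as well. Of the 10 AP-1 members none differed by as much as GEM, NR4A2, PHLDA1 or CCN1.

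**Figure D4:**
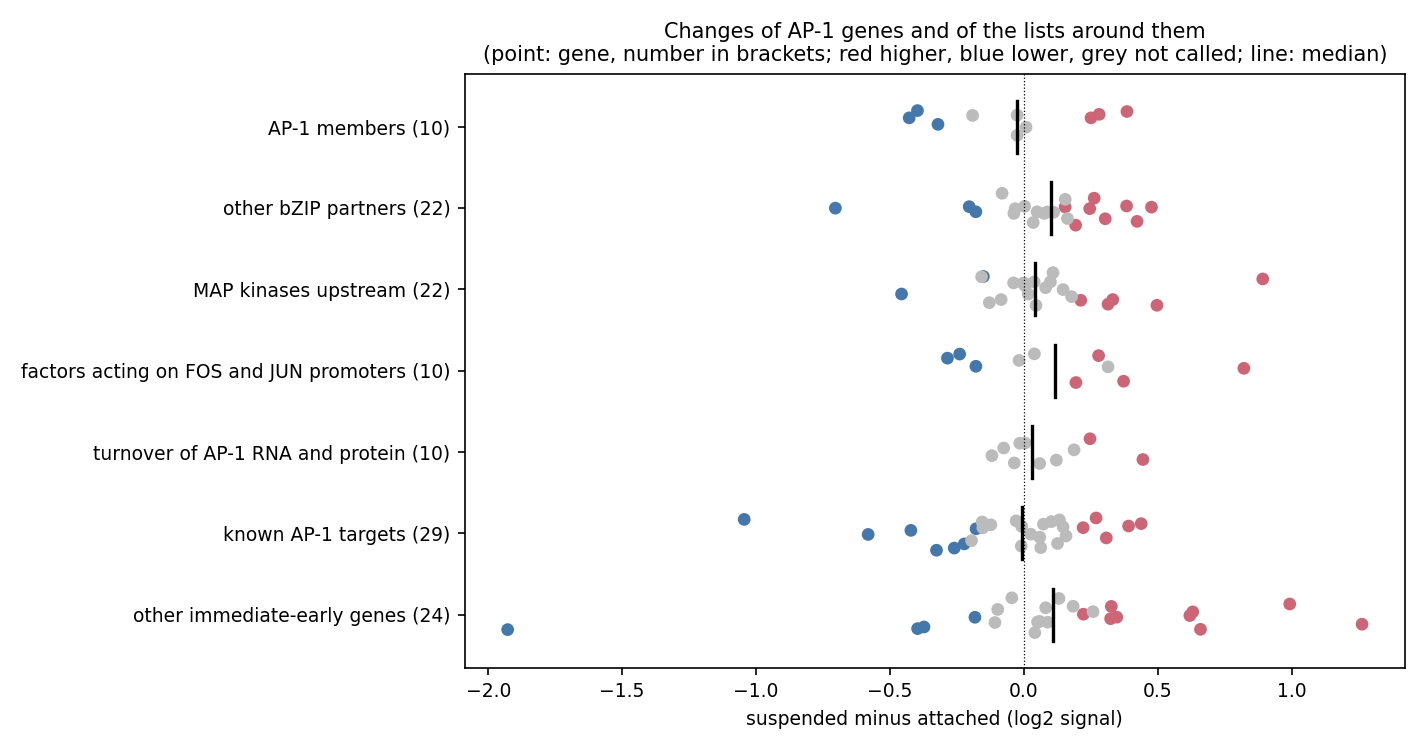
Log2 difference, suspended minus attached, of every measured gene in the AP-1 set and in 6 lists of related genes (points; red higher, blue lower, grey not past limma adjusted p under 0.05), with the median of each list as a line. The AP-1 genes lie between −0.43 and 0.39 on both sides of a median of −0.02, and CCN1 (−1.93), AXL (−1.04) and GEM (1.26) mark the ends of their lists.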

How the data were processed

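Total RNA of 8 BT549 cultures was measured on arrays. The authors deposited log2 signals for 33297 probe sets. The log2 scale was inferred from the values (array maxima 13.69 to 13.73). Partek was used, per the submitters' processing notes; the sources used here do not give its version, background correction or normalization. Per the labels' protocols, 1 µg RNA per sample was labelled with biotin; the kit they name is one for small-RNA arrays, whereas these are gene-level values, so how the RNA was labelled is uncertain.

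Of the probe sets 19460 had 1 gene symbol in the platform annotation, 1754 several and 12083 none. The brightest probe set stood for a gene with several, leaving 18417 genes; all 10 member gene IDs matched RefSeq. The comparison was a two-sided test of group means by limma 3.58.1 under R 4.3.3 (functions lmFit, then eBayes) without covariates, with Benjamini-Hochberg adjustment and a threshold of 0.05. SE is limma's moderated value. Folds are ratios of signals, since no background measure was used here. Precision is limited by the number of arrays, which carry no read depth. The members and lists were chosen with earlier results of these data known. Named beside the members were the 4 genes per list ranked first by adjusted p, all called genes where a direction had 5 or fewer, and the 2 nearest profiles; the JNK genes, chosen after their values were seen, are an exception. On simulated data with 18417 genes the fit for suspended minus attached recovered 75% of 100 genes changed 1.3-fold and 98% of 100 changed 2-fold. Beside 173 changed genes called in the right direction, 17 unchanged genes were called. The simulation changed far fewer genes than the 3787 called in the data, which makes the adjustment stricter. Its recovery need not hold for these data. Alternatives were the replicate block, 3 normalizations, array weights, trended variance, 2 filters on low signal, 2 probe set rules and leaving out each array. Plots used Python 3.11.15 and matplotlib 3.10.9.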

Additional observations from a re-analysis of the deposited data

Results flagged for a closer look

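JUND in attached replicate 1 stood apart, at a log2 signal of 7.79 where the other 3 attached arrays read 8.05 to 8.09. The gap made up 0.87 of the group's range, above Dixon's critical value for 4 arrays. The difference between the groups was 0.28 with this array and 0.21 without it (limma adjusted p = 0.0174 and 0.0333).

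USP28 in attached replicate 1 likewise lay low, at 7.67 against 7.75 to 7.77 in the other attached arrays, with a gap of 0.837 of the range. Its difference, 0.12, did not pass with this array, nor without it (0.10, limma adjusted p = 0.209). Chance alone flags about 1 in 20 such groups, and 82 were examined, of which 2 stood out.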

How the results depend on the processing

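JUNB and JUND stayed higher and JUN, FOSL1 and FOSB lower under all 10 other settings and all 8 refits with 1 array left out. Each stayed past limma's adjusted threshold. Their ranges were JUNB 0.34 to 0.42, JUND 0.21 to 0.31, JUN −0.37 to −0.26, FOSL1 −0.48 to −0.37 and FOSB −0.46 to −0.35. JUND came nearest to that threshold, at limma adjusted p = 0.0498 without suspended replicate 4 and 0.0486 with all probe sets tested. ATF3 was not past it with the replicate block (0.25, adjusted p = 0.0986), quantile normalization (0.2283), median centring (0.2282), centring on the tested genes (0.2052, an alternative chosen after seeing the data) or with all probe sets tested (0.2511, adjusted p = 0.0987), and ranged from 0.17 to 0.29 over the 8 refits. MAFF passed with array weights (−0.2304) and centring on the tested genes (−0.2371), and ranged from −0.25 to −0.14 over the refits. The number of members called was 5 to 7 throughout. Of all genes 3787 were called, 2934 to 4191 under the alternatives, and the share called higher, 50.4%, became 42.5% with median centring and 35.2% with centring on the tested genes (1340 higher, 2472 lower). ATF3, BATF3 and MAFF have no value with only genes above the median level, which removes them.

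Same-numbered arrays did not deviate together (r = −0.198 to 0.0416 over genes), so the numbers are not taken to pair them. With the replicate block 3022 genes were called, ATF3 was the one member whose call changed, and for the 7 pairs of members a paired exact test cannot go below p = 0.125. No array correlated best with the array of its own number in the other group. The within-array changes held their sign over the refits (JUN minus JUNB −0.76 to −0.68, JUN minus JUND −0.64 to −0.55). Of the 37 called genes named outside the members, 31 kept their call under every alternative that tested them. No signal over background could be set for these arrays, so a limit from low signal was not tested.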
